A study of Mus musculus with 2 samples.

Results

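The heavy chain constant region genes of mouse antibodies covered here are Ighm, Ighd, Ighg3 and Igha, which encode the constant parts of IgM, IgD, IgG3 and IgA. They were chosen by the gene symbol of the array platform's annotation, and every probe set that named 1 of these 4 genes and no other was taken. That gave 27 of the 12422 non-control probe sets, and 4 of the 8251 genes named by such single-gene probe sets. Ighm had 16 probe sets, Ighd 1, Ighg3 7 and Igha 3. A further 3 probe sets named a member together with other genes and were kept apart.

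The RNA was purchased total RNA of mouse spleen, hybridised to 2 oligonucleotide arrays that form 1 group. The labels give no strain, age, sex or treatment. They give 1 catalogue number for both arrays and do not say whether tube, labelling reaction or day were shared, so the spread between arrays may be technical alone. There was no second condition and no test.

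Each antibody heavy chain joins a variable part, which binds antigen, to a constant part, which sets the isotype and with it the place where the antibody acts. A naive B cell makes IgM and IgD from the same primary transcript by alternative splicing, and both sit on its surface with the signalling chains Cd79a and Cd79b. After activation, switch recombination can replace the mu gene with a downstream constant gene such as that of IgG3 or IgA, and a change in RNA processing turns the membrane form into the secreted form of plasma cells. In the spleen, follicular and marginal zone B cells and plasma cells are the known sources of these transcripts. In the RefSeq gene table of GRCm38.p6 the constant genes lie on chromosome 12. By rising start coordinate they are Igha, Ighe, Ighg2c, Ighg2b, Ighg1, Ighg3, Ighd and Ighm. The strand was not taken into account, so this list need not follow the direction of transcription. Of these 8 genes, the 4 members were the ones that the platform named on single-gene probe sets.

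Values are signal intensities on a linear scale as deposited, scaled to a common level on both arrays. Probe sets are called bright here if each array's 60th percentile was passed (346.32 for array 1, 342.22 for array 2) and dim otherwise. Background was read from 15 probe sets for bacterial sequences foreign to mouse, the highest of which gave 95 on array 1 and 76.2 on array 2. A letter before the _at of a probe set's name marks how its probes were selected: plain _at probe sets were designed for a single target, _f_at for a family of similar sequences, and _s_at for sequences shared between transcripts. Probes differ in how strongly they bind, so gaps between probe sets describe signals and not amounts of RNA.

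The B cell markers fixed for the spleen were present: 7 of 8 measured ones were bright, against 45.2% of all named genes, with Cr2 as the exception at 192 and 210.7. Cr2 was read by 1 relaxed-selection probe set, 102289_r_at, and 19.2% of all _r_at probe sets were bright. Of 6 plasma cell markers 3 were bright, a share near that of all named genes. The bright ones were Jchain at 7657.3 and 7566.3, Xbp1 at 1938.3 and 2348.1 and Irf4 at 911.3 and 831.2. The dim ones were Sdc1, the surface marker CD138, at 92.9 and 89, Prdm1 at 169 and 134.7 and Tnfrsf17 at 245.2 and 187.9. T cell markers were bright in 5 of 5 cases, macrophage markers in 4 of 5 and red cell precursor markers in 4 of 4. Acinar cell genes of the neighbouring pancreas were bright in 5 of 5 cases, between 4917.6 and 25030.4 over both arrays. Their part in the heavy chain signals was not tested. Of the transcription factors of spleen identity, Nkx2-5 and Barx1 were measured and neither was bright.

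Of the 27 heavy chain probe sets 18 were bright, or 66.7%, against 37.9% of all probe sets. Their median log2 signal was 10.57, against 7.80 over all probe sets. With the 75th percentile as the cutoff 16 were bright, against 23.5% of all, and with the 50th 18 were, against 47.3% of all. Both arrays exceeded the bacterial range in 22 cases, against 65.5% of all probe sets. Bright probe sets numbered 9 of 16 for Ighm, 1 of 1 for Ighd, 6 of 7 for Ighg3 and 2 of 3 for Igha. Each of the 4 symbols therefore had a bright probe set, and each symbol with several probe sets also had a dim one. Many other genes of the array with several probe sets also had bright and dim ones, so the mix is not particular to these genes. The annotation does not say whether a probe set reads the constant or the variable part of a heavy chain, so some of the signals under Ighm or Ighg3 may be those of variable sequences and need not report that isotype. This was not tested, and it applies to every count and order of the genes given below. The probe sets of a gene share its transcripts, and all share the same 2 arrays, so they are not replicates.

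**Figure D1:**
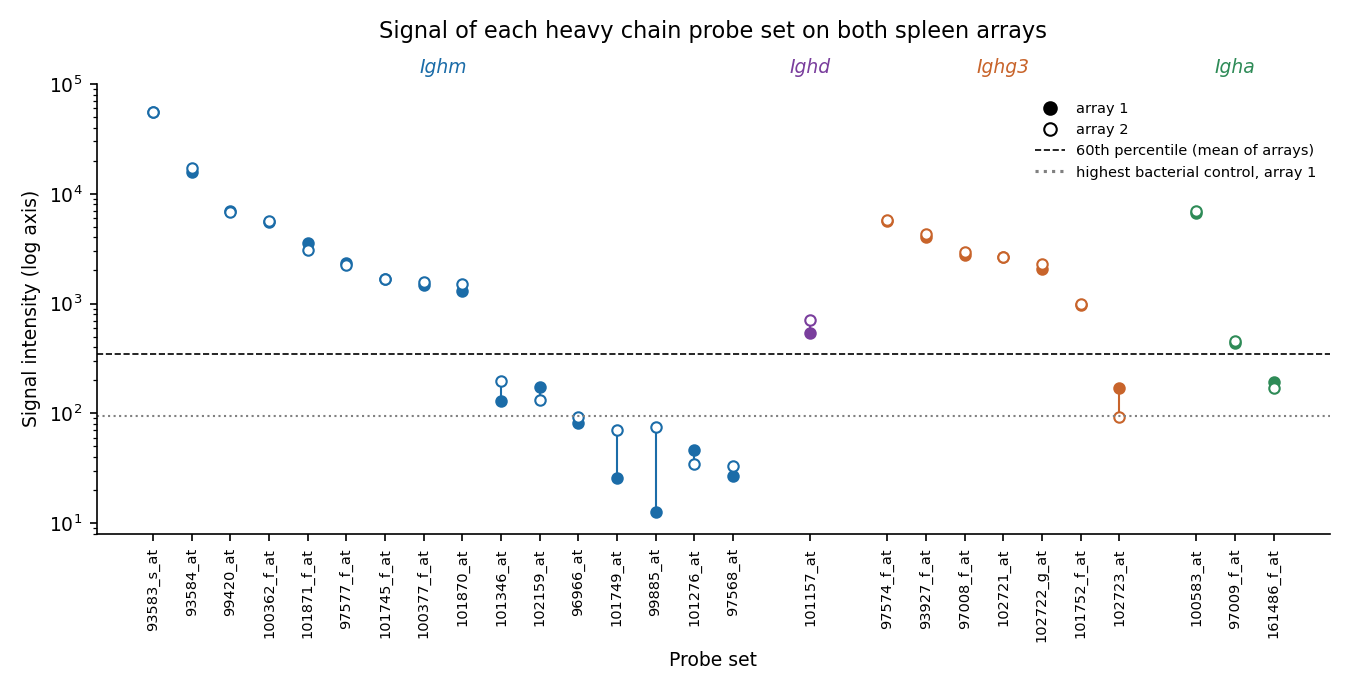
Signal intensity (log axis) of each of the 27 single-gene heavy chain probe sets on array 1 (filled) and array 2 (open), ordered within each gene by mean signal; the dashed line is the mean of both arrays' 60th percentiles and the dotted line the highest bacterial control on array 1. The 9 bright Ighm probe sets stand apart from the 7 dim ones, and the widest gaps between arrays are found among dim probe sets.

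Ighm, the heavy chain of IgM, gave the brightest signal of the 4 genes. Its probe set 93583_s_at gave 56115.7 on array 1 and 55922.6 on array 2, or 56019 ± 137 (SD, n = 2 arrays here and below). It ranked 3rd of all non-control probe sets on array 1 and 2nd on array 2. No source used here gives the signal at which the scanner saturates, so how far such a value is compressed is not known. The next Ighm probe set, the plain 93584_at, gave 15761.8 and 17253. The first was 3.56 times the second on array 1 and 3.24 times on array 2, which is far beyond the gap between arrays of either.

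Below these lay a run of Ighm probe sets from the 98.6th down to the 88.2nd percentile of array 1. The plain probe set 99420_at gave 6901.1 and 6799.8. The family probe sets were 100362_f_at at 5563.3 and 5654.1, 101871_f_at at 3590.8 and 3077.2, 97577_f_at at 2330.2 and 2234, 101745_f_at at 1685.4 and 1678.7, and 100377_f_at at 1479.3 and 1565.3. The plain 101870_at gave 1293.8 and 1513.9 and completed the bright set. From the brightest to the dimmest of these 9 the signal fell by a factor of 43.4 on array 1 and 36.9 on array 2. Their values followed 1 order on both arrays, and only 100377_f_at and 101870_at, neighbours in it, had overlapping ranges.

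The remaining 7 Ighm probe sets were dim, and all 7 were plain _at probe sets. The upper pair was 101346_at at 128.1 and 195.3 and 102159_at at 175 and 132.6, whose order reversed between arrays. Next, 96966_at gave 81.5 and 91.6 and passed the highest bacterial control on array 2 alone. The other 4 stayed below the highest bacterial control throughout: 101749_at at 25.7 and 70.8, 99885_at at 12.6 and 75.3, 101276_at at 46.2 and 34.2, and 97568_at at 26.6 and 32.7. These last 4 carry the same gene symbol as the bright ones, yet their signals cannot be told from those of foreign sequences.

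Between the dim and the bright Ighm probe sets lay an empty interval. The highest dim values were 175 on array 1 and 195.3 on array 2, and the lowest bright ones were 1293.8 and 1513.9. The interval spanned 7.39-fold on array 1 and 7.75-fold on array 2. Its limits are Ighm's own values, so that Ighm has no probe set inside it is not a result. As a description of its place in the array's range, 4911 of all 12422 probe sets, or 39.5%, and 3 of the other 11 heavy chain probe sets lay inside it on both arrays.

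Ighd, the heavy chain of IgD, was measured by the plain probe set 101157_at, at 540.6 on array 1 and 709.9 on array 2, or 625 ± 120. That placed it at the 70.8th percentile of array 1 and the 77.4th of array 2, the lowest position of the 4 genes' brightest probe sets. It was bright but lay below the 75th percentile on array 1, which was 641.1. Its log2 difference, array 2 minus array 1, was 0.39, the widest among the bright heavy chain probe sets.

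Ighg3, the heavy chain of IgG3, an isotype that mouse B cells make in responses without T cell help, had 6 bright probe sets and 1 dim one. The family probe sets 97574_f_at, 93927_f_at and 97008_f_at gave 5608 and 5753.1, 4042.3 and 4288.9, and 2796.5 and 2937.9 on arrays 1 and 2. A plain and a _g_at probe set of Ighg3 were designed from the same target sequence: 102721_at gave 2651.2 and 2652.5, and 102722_g_at gave 2078.5 and 2315.9. That pair differed by 1.28-fold on array 1 and 1.15-fold on array 2. The family probe set 101752_f_at followed at 970.1 and 982.3. The dim one was the plain 102723_at at 168.1 and 92.3, with a log2 difference of -0.86. The 7 probe sets kept the same order on both arrays, and no neighbours had overlapping ranges.

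Igha, the heavy chain of IgA, the isotype of mucosal surfaces, showed the reverse arrangement of suffixes. Its plain probe set 100583_at was its brightest, at 6699.6 and 6917.5, or 6809 ± 154. The family probe set 97009_f_at gave 436.4 and 459.6, and 161486_f_at gave 191.9 and 169.2. The plain probe set was 15.4 times the brighter family probe set on array 1 and 15.1 times on array 2. The 3 values did not overlap between arrays. By mean signal, 97009_f_at was the bright heavy chain probe set nearest to the cutoff and 161486_f_at the dim one nearest to it, although on array 2 the dim 101346_at of Ighm lay nearer at 195.3.

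Taking each gene's brightest probe set, the order was Ighm, Igha, Ighg3 and Ighd on both arrays. Ighm was 8.38 times Igha on array 1 and 8.08 times on array 2. Igha and Ighg3 were the closest neighbours, with Igha 1.19 times Ighg3 on array 1 and 1.20 times on array 2. Their ranges over the arrays did not overlap, but the pair of Ighg3 probe sets made from the same target differed by a similar ratio. Ighg3 was 10.4 and 8.10 times Ighd on arrays 1 and 2. With plain _at probe sets alone the order stayed the same. Ighm was then 2.35 and 2.49 times Igha on arrays 1 and 2, a narrower ratio, and Igha was 2.53 and 2.61 times Ighg3, a wider one. By the median over a gene's probe sets the order was another, with 2651.2 and 2652.5 for Ighg3, 1386.55 and 1539.6 for Ighm, 540.6 and 709.9 for Ighd, and 436.4 and 459.6 for Igha. The order of the 4 symbols on these arrays thus depended on which probe sets stood for a gene.

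Over all 27 probe sets ordered by mean signal, 9 of the 26 neighbouring pairs overlapped between arrays. Of these 9 pairs 4 joined bright probe sets and 5 joined dim ones. Most of the order was therefore wider than the spread between arrays, while single steps of it were not. By rank among the 27, 15 probe sets held the same place on both arrays and the others did not.

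**Figure D2:**
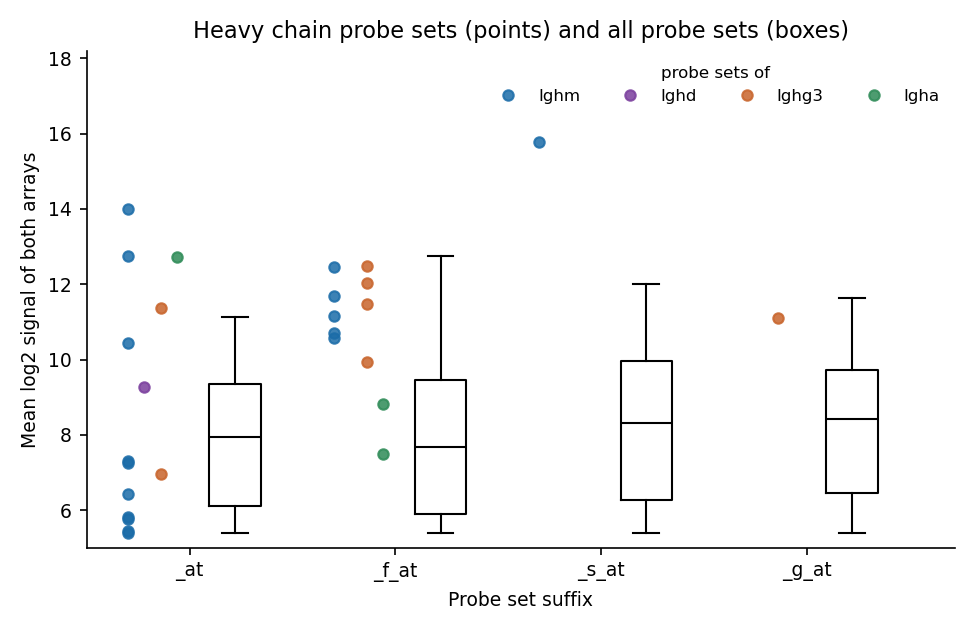
Mean log2 signal of both arrays for heavy chain probe sets (points, coloured by gene) and for all probe sets (boxes: quartiles and median, whiskers from the 5th to the 95th percentile), by probe set suffix. Plain _at probe sets of Ighm run over 8.62 on the log2 scale, and its family probe sets over 1.88.

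The suffix classes differed in how they were filled. Among family (_f_at) probe sets 10 of 11 heavy chain ones were bright, against 37.2% of all 1075 family probe sets on the array. Among plain _at probe sets 6 of 14 heavy chain ones were bright, or 42.9%, against 39.5% of all 9614. The plain heavy chain probe sets were thus bright about as often as plain probe sets in general. Within Ighm the 5 family probe sets were all bright and spanned 1.88 on the log2 scale, whereas 3 of 10 plain ones were bright and they spanned 8.62. A family probe set can take up transcripts of related sequences.

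The gap between probe sets of the same gene was set beside that of other genes. Among the 398 genes with at least 3 single-gene probe sets, the median gap from the brightest to the dimmest was 2.85 on the log2 scale. Ighm had 10.39, the widest of the 398, and also the most probe sets. Ighg3 had 5.51 and ranked 32nd, and Igha had 5.24 and ranked 46th. The gene next to Ighm was Rps4x, a ribosomal protein gene, with 9.05 over 5 probe sets. A gap over more probe sets can only be as wide or wider, and Ighm and Ighg3 were the 2 genes with 7 or more. The gap within Ighm was 10.39 on array 1 and 10.39 on array 2, and its dim end was held at the floor of 41.8 on both, so it is a lower bound.

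**Figure D3:**
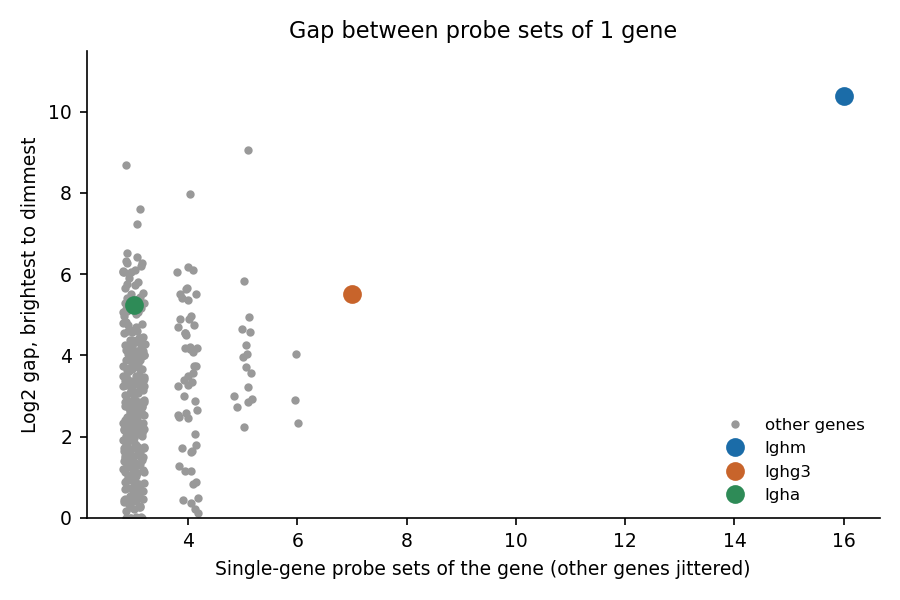
Log2 gap from the brightest to the dimmest single-gene probe set of a gene against its number of probe sets, for 398 genes with at least 3; values are means of both arrays. Ighm stands at 16 probe sets and 10.39, Ighg3 at 7 and 5.51, and Igha at 3 and 5.24.

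The spread between the arrays was small for bright heavy chain probe sets. Their SD ranged from 0.0347% of the mean signal, for Ighg3's 102721_at, to 19.1%, for Ighd, with a median of 3.23%, against a median of 5.74% over all bright probe sets. The pooled SD of a log2 signal between the arrays was 0.096 over the 18 bright ones and 0.385 over the 9 dim ones. It was 0.152 and 0.384 over all bright and all dim probe sets. Among the 3106 brightest probe sets by mean log2 signal were 16 of the 27, with a pooled SD of 0.073, against 0.142 for all 3106. The 3106 dimmest held 4, with 0.407 against 0.230. Many of these 3106 were held at the floor on both arrays and differ by the centring alone, which lowers the 0.230. Their median absolute difference was 0.0016, the size of the centring shift. The next 3105 by rising signal held 5, with 0.366 against 0.522, and the 3105 after those held 2, with 0.201 against 0.234. Dim heavy chain probe sets thus varied more between the arrays than bright ones, as did dim probe sets in general.

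No heavy chain probe set was more than 2-fold apart between the arrays after values were floored at the 20th percentile, 41.8 on both arrays. A difference of that size was found for 2.32% of all probe sets in favour of array 2 and for 2.81% in favour of array 1. As deposited, without the floor, 99885_at was 5.98 times and 101749_at 2.75 times higher on array 2. Both are Ighm probe sets that stayed below the highest bacterial control. Of the 18 bright probe sets 13 were higher on array 2, against 50% of all bright probe sets, which centring fixes. They were 4 of 9 for Ighm, 1 of 1 for Ighd, 6 of 6 for Ighg3 and 2 of 2 for Igha, and the log2 differences of Ighg3 and Igha lay between 0.0024 and 0.16. With 2 arrays of 1 group these directions have no test.

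**Figure D4:**
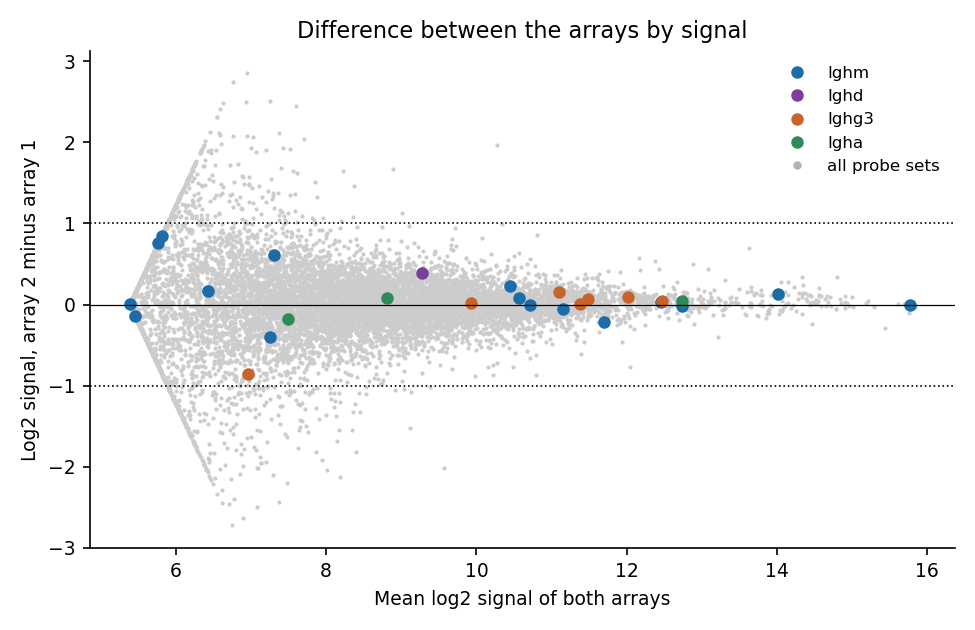
Log2 difference, array 2 minus array 1, against the mean log2 signal of both arrays for heavy chain probe sets (coloured) and all probe sets (grey), after the floor and centring; dotted lines mark 2-fold. All 27 heavy chain probe sets lie between -0.86 and 0.85.

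Genes that work with the heavy chains were counted by their brightest single-gene probe set, and 45.2% of all named genes were bright. The share was 28.5% with the cutoff at the 75th percentile and 73.9% with the highest bacterial control as cutoff. Of the other antibody chains, Ighg1, Ighg2b, Ighg2c, Ighg2a, Ighe, Iglc2 and Iglc3 were named on no probe set and were not analysed here. Jchain, which links IgM and IgA into polymers, gave 7657.3 and 7566.3. The lambda light chain gene Iglc1 was named alone on a relaxed-selection probe set, 93639_r_at, at 164 and 34.8. A second probe set that names Iglc1 with a variable segment gave 4149.8 and 4049.5. The kappa constant gene Igkc was named on 5 probe sets, each together with variable segments, with signals from 12161.6 to 49178.1 over both arrays.

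Of 6 measured membrane partners and receptors of antibodies 5 were bright, or 3 by the 75th percentile. Cd79a and Cd79b, which carry the B cell receptor's signal, gave 10333.1 and 10870.5, and 7231.5 and 7092.4. Fcer2a, the low-affinity IgE receptor CD23 of follicular B cells, gave 2673.8 and 2182.1. Pigr, which carries polymeric IgA and IgM across epithelia, gave 558 and 521.8, and Fcgr2b, the inhibitory IgG receptor, gave 510.4 and 491.3. Fcgrt, the neonatal receptor that recycles IgG, was not bright at 43.8 and 66. The B cell receptor's own chains were thus among the bright signals, as was 93583_s_at of Ighm.

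Of 12 measured genes of isotype switching 4 were bright, against 45.2% of all named genes. With the 50th percentile as the cutoff 6 were, for which the share of all named genes was not computed. The bacterial range was exceeded on both arrays by 8, against 73.9% of all named genes. The bright ones were Ung, a uracil glycosylase of DNA repair, at 788.4 and 936.4, the endonuclease Apex1 at 680.3 and 753.1, the B cell receptor for T cell help Cd40 at 417 and 369, and Tgfb1, the cytokine that directs switching to IgA, at 2728.1 and 2422.5. The Ung values are those of a relaxed-selection probe set, 162227_r_at. Ung's plain probe set 102792_at was also bright, at 471.6 and 519.9. The mismatch repair gene Msh6 at 137 and 138.9 and the repair factor Trp53bp1 at 230.7 and 264.3 were not bright. Nor were the other measured cytokines of the list: Il4 gave 77.7 and 112.4 by its brightest probe set, Ifng 5.3 and 14.4, and Il5 51.5 and 18. Cd40lg at 21 and 17.7, Xrcc5 at 128.4 and 187 and Xrcc6 at 317.4 and 326.8 were not bright either. Several of these genes are known to act in all dividing cells, so their signals do not describe B cells alone.

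Of 8 measured genes of heavy chain RNA processing and the change to secretion 7 were bright, or 4 by the 75th percentile. Ell2, an elongation factor that favours the secreted form of the heavy chain, gave 1390.4 and 1430, while its other 2 probe sets gave 229.6 and 269.4, and 89.8 and 76.5. The cleavage factor Cstf2 gave 527.8 and 485.2, the splicing regulator Hnrnpll 643.8 and 554, and the secretory regulator Xbp1 1938.3 and 2348.1. Prdm1, the repressor that defines plasma cells, was the member that was not bright, at 169 and 134.7. Like Ighm, Ell2 therefore had bright and dim probe sets under the same symbol. Many genes outside the lists did as well, Rps4x among them with 1 bright of 5, so the mix is not particular to antibody genes.

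**Figure D5:**
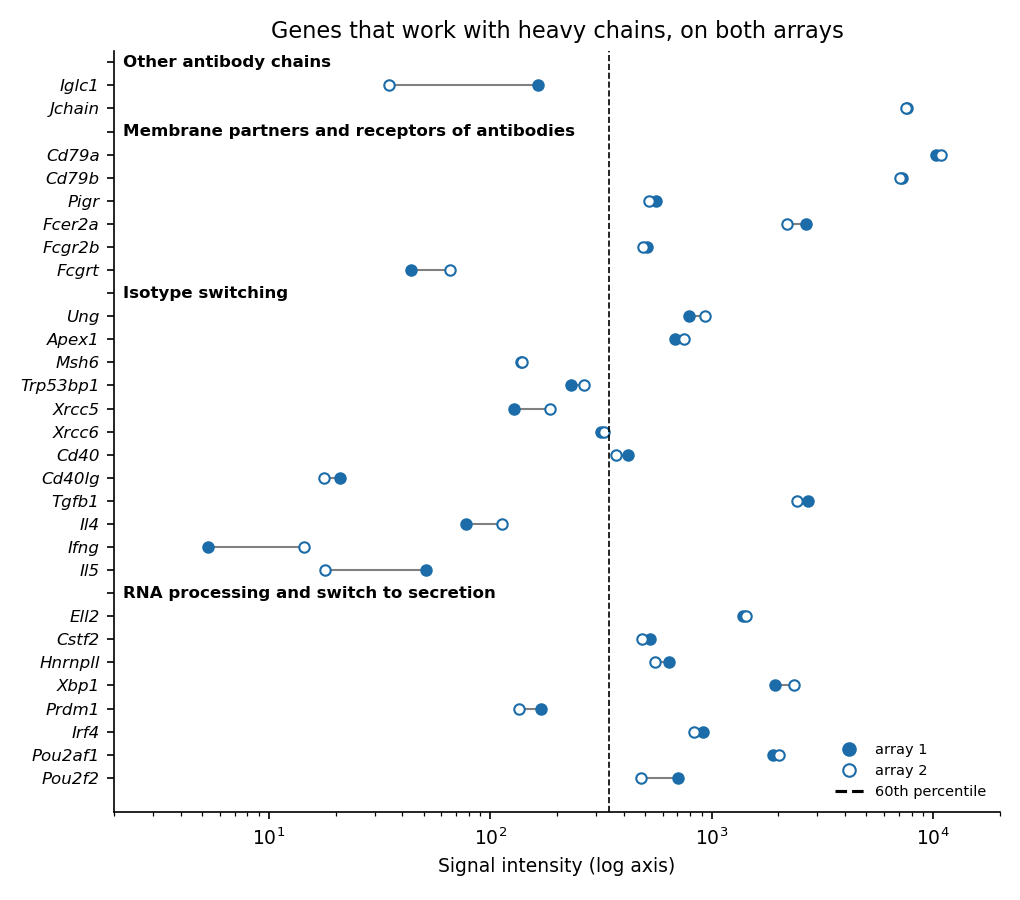
Signal intensity (log axis) on array 1 (filled) and array 2 (open) of the measured genes of 4 lists, each by its brightest single-gene probe set; the dashed line is the mean of both arrays' 60th percentiles. Jchain, Cd79a and Cd79b lie at the right, from 7092.4 to 10870.5, and Fcgrt and Iglc1 lie left of the line.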

How the data were processed

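Expression was measured on 2 arrays of spleen RNA. The deposited table holds 1 signal intensity per probe set and array; software, detection calls and array reader are not given in the sources used here. The trimmed means, with the lowest and highest 2% left out, were 499.79 and 499.54, so the deposited intensities were already scaled. Depth has no meaning for arrays, and their number limits the precision. Controls (66 of 12488 probe sets) stayed out of percentiles.

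Intensities were used as deposited for levels. For log2 values they were floored at each array's 20th percentile, and differences were centred on the median of bright probe sets. SDs are over 2 arrays. For the pooled SD the mean of the squared log2 differences was divided by 2 before the root was taken. It is thus the SD of 1 array's log2 signal and not that of the difference. Named genes were all probe sets of members, the first 4 measured genes of each list and the members of counts of 5 or fewer. Rps4x and the dim genes of isotype switching given after Trp53bp1 were chosen after their values were seen. No gene was named by likeness of pattern, since 2 arrays of 1 group hold none. Members and lists were chosen with earlier results of these data known. RefSeq's GRCm38.p6 table served for names and gene order alone. The pooled SD and centring were tested on simulated data. Python 3.11.15, numpy 2.4.6, pandas 2.3.3, statsmodels 0.14.6 and matplotlib 3.10.9 were used.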

Additional observations from a re-analysis of the deposited data

Results flagged for a closer look

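Signal was also found in 3 probe sets outside the comparisons above, each of which names a member together with other genes. All 3 exceeded the bacterial range on both arrays, as did 65.5% of all probe sets. The probe set 92470_f_at, which names Ighm with the variable segments Ighv1-53 and Ighv1-72, had a mean of 2080 (2076.4 on array 1 and 2083.3 on array 2). The probe set 97575_f_at, which names Ighg3, Igha and Ighm, had a mean of 1652 (1715.7 and 1587.5). The probe set 99421_at, which names those 3 genes and the variable segment Ighv14-2, had a mean of 1320.5 (1265.6 and 1375.4). With 2 arrays in 1 group, no check for an array that stands apart and no comparison of effects between groups was made.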

How the results depend on the processing

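The 18 bright heavy chain probe sets became 6, of 14, with marked suffixes left out; by the other cutoffs, each array alone, quantile normalization or with several-gene probe sets added the count was 16 to 22. The 0 probe sets more than 2-fold apart became 2 with the floor at the 10th percentile, with no floor and with a pseudocount of 16. The share of all probe sets under these settings was not computed, so whether 2 of 27 is usual there cannot be said. The pooled SD over all 27, 0.236, became 0.399 with the floor at the 10th percentile, 0.446 with no floor and 0.096 over bright ones alone. Centring, quantile and loess settings moved neither by over 1.5 times. The log2 gap within Ighm, 10.39, was 10.89 with either lower floor, 10.26 with the pseudocount and 8.62 with marked suffixes left out, where that of Ighg3 was 4.41 and Igha kept 1 probe set and has no value. Each array alone gave 10.39 for Ighm, 5.06 and 5.96 for Ighg3, and 5.13 and 5.35 for Igha. By the 75th percentile, 3 of 6 membrane partners and 4 of 8 RNA processing genes were bright; with the highest bacterial control, 8 of 12 switching genes were. Of 162 log2 differences of single probe sets under other settings 10 moved by more than the pooled SD, all of dim Ighm probe sets under another floor or the pseudocount. No paired analysis was possible because there is 1 group.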

Other observations

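The platform also named 9 probe sets for heavy chain variable segments alone, chosen after their values were seen. Of these 8 were bright, against 37.9% of all probe sets. Their means ran from 1650 for a probe set of Ighv14-2 to 8087 for 98765_f_at of Ighv5-12. The dim one, 98776_at, named for Igh-VS107, gave 108.6 on array 1 and 60.7 on array 2, while the other 2 probe sets of Igh-VS107 gave means of 1815 and 1962. A bright and a dim probe set under the same symbol were thus also found for a variable segment, as for many other genes of the array.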
